A study of Mus musculus with 2 samples.

Results

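The Slc25a genes encode the mitochondrial solute carriers, and they were followed here in long-read RNA-seq of the mouse adrenal gland. Members were all genes of the deposited tables whose symbol is Slc25a and a number. Of 47 such genes in the GENCODE M21 annotation, 41 had at least 1 read, out of 16945 annotated genes with a read in either library. Replicate 1 held reads of 41 members and replicate 2 of 39.

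Carriers of this family are small proteins of the inner mitochondrial membrane, each built of repeated helix pairs, that exchange nucleotides, phosphate, carboxylates, amino acids, acylcarnitines and cofactors between cytosol and matrix. A few family members sit elsewhere, such as Slc25a17 in the peroxisome membrane and Slc25a46 in the outer mitochondrial membrane. The adrenal cortex makes steroids in part inside its mitochondria, where side-chain cleavage and the last corticoid steps take place, and these reactions draw on NADPH and on the carboxylates that carriers move.

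The data are 2 libraries of a single group: adrenal gland of female B6CASTF1/J mice, the first-generation cross of C57BL/6J and CAST/EiJ, aged 36 days and with no treatment given in the labels. The labels number the libraries as biological replicates 1 and 2, but they give both the same donor, and 1 field gives the same animal number to both while another gives different ones. All p-values below therefore compare 2 libraries, not conditions, and measure counting error only. Levels are reads per 1000000 reads of annotated genes (CPM), without a division by transcript length. Whether the recovery of reads depends on transcript length was not tested, so comparisons between genes are comparisons of read counts.

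Replicate 1 held 1144572 reads of annotated genes and replicate 2 held 414588, so a count of 0 allows up to 2.62 CPM in replicate 1 and 7.24 CPM in replicate 2 (3 reads). Cortex markers summed to 64044.0 and 82293.7 CPM (7 of 7 read in both), but to 45952.4 and 41085.8 when only full-length reads (defined below) were counted, per 1000000 of them, so the direction turned. Medulla markers summed to 9956.6 and 6789.9 CPM (6 of 6). Skeletal muscle markers summed to 969 CPM in replicate 1 (10 of 11 read) and 14.5 CPM in replicate 2 (4 of 11 read, with Atp2a1, Tnnc2, Tnnt3, Myh4, Myh1, Tcap and Pvalb at 0). The brown fat list summed to 2692.7 and 4336.8 CPM, the white fat list to 6228.5 and 8796.7 CPM and the erythroid list to 4033.8 and 3844.8 CPM. Liver markers gave 18.3 CPM and 0, and kidney markers were at 0 in both.

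Carriers took 7111 reads in replicate 1 (6212.8 CPM) and 2519 in replicate 2 (6075.9 CPM), a mean of 6144.4 ± 96.8 CPM (SD, n = 2), or 0.621% and 0.608% of the reads of annotated genes. Mean levels spanned more than 3 orders of magnitude, but the lowest, that of Slc25a34, rested on 1 read. Of the members, 3 stood at a mean of 500 CPM or more, 19 at 50 CPM or more, 11 between 10 and 50 CPM and 11 under 10 CPM. The median member with a read had 29.1 CPM, against 9.96 CPM for the median annotated gene with a read, and 30 members lay above that median. Slc25a3, Slc25a5 and Slc25a4, which import phosphate and exchange ADP for ATP, held 58.4% ± 3.21 of the carrier reads (SD, n = 2). With Slc25a39 and Slc25a1 added, 5 genes held 72.0% ± 0.983. Of full-length carrier reads, the first 3 genes held less, 50.9% in replicate 1 and 49.1% in replicate 2, and the 5 genes 70.1% and 63.9%.

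**Figure D1:**
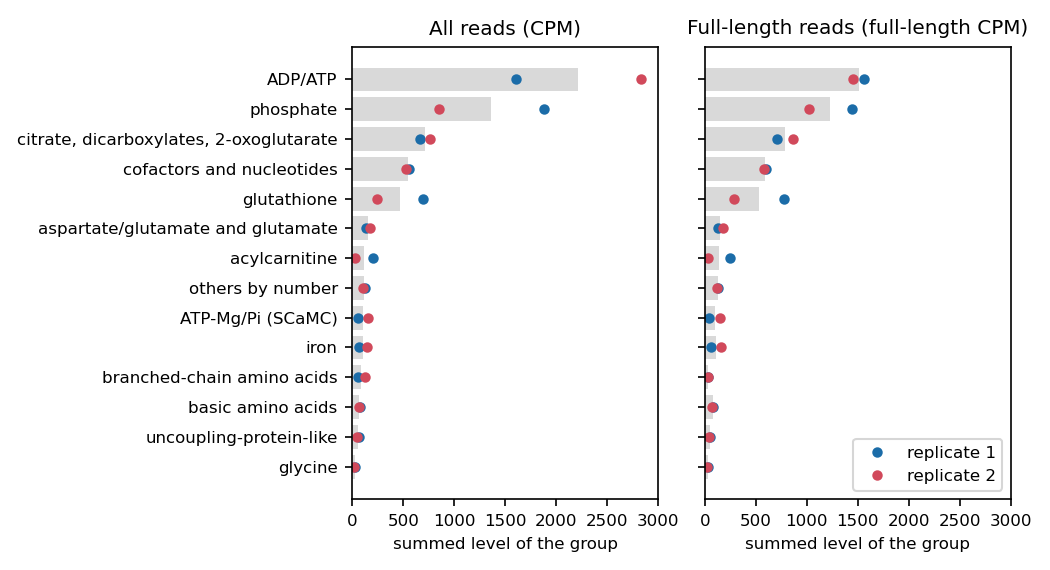
Summed level of the members of each substrate group, from all reads (left, CPM) and from full-length reads only (right, full-length CPM, that is per 1000000 full-length reads). Grey bars are the mean of both libraries and points are the libraries. The ADP/ATP carriers lie at 1607.6 and 2829.3 CPM on the left and at 1563.3 and 1453.0 full-length CPM on the right.

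Of the 47 genes, 6 had no read in either library: Slc25a2, Slc25a18, Slc25a21, Slc25a31, Slc25a41 and Slc25a54. Slc25a31 is the ADP/ATP carrier known from male germ cells. Slc25a18, a glutamate carrier, overlaps Atp6v1e1 on the opposite strand, which had 514 and 196 reads. Slc25a27 (3 reads) and Slc25a34 (1 read) were seen in replicate 1 only. In all, 23 members overlap another annotated gene, 8 of them on the same strand, where the reads of both could be mixed; the same-strand neighbours are small RNA genes, a pseudogene and a locus of unsettled type, and the highest of them had 2 reads.

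A read was called full-length when it matched an annotated transcript (class Known) or a new chain of introns (NIC for known splice sites in a new combination, NNC for a new splice site). Their level is given as full-length CPM, the full-length reads of a gene per 1000000 full-length reads of the library. The other classes were ISM, which covers only a stretch of an annotated transcript, and Genomic, a read that overlaps the gene without following its splicing. Full-length reads made up 77.8% of carrier reads for replicate 1 (76.8 to 78.7%, 95% Wilson interval) and 62.8% for replicate 2 (60.9 to 64.6%), against 81.9% and 75.7% over all annotated genes. The rest lay mostly in 1-exon models, which hold no splice junction and so do not show whether the RNA was spliced. Those other than Known held 1360 and 865 carrier reads. Of these, 98.5% and 99.5% touched the last exon, and 82.6% and 84% came from Slc25a3, Slc25a4 and Slc25a5. The class of these reads differed between the libraries. Genomic held 18.8% of carrier reads in replicate 1 and 4.88% in replicate 2, and ISM 3.39% and 32.4%.

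**Figure D2:**
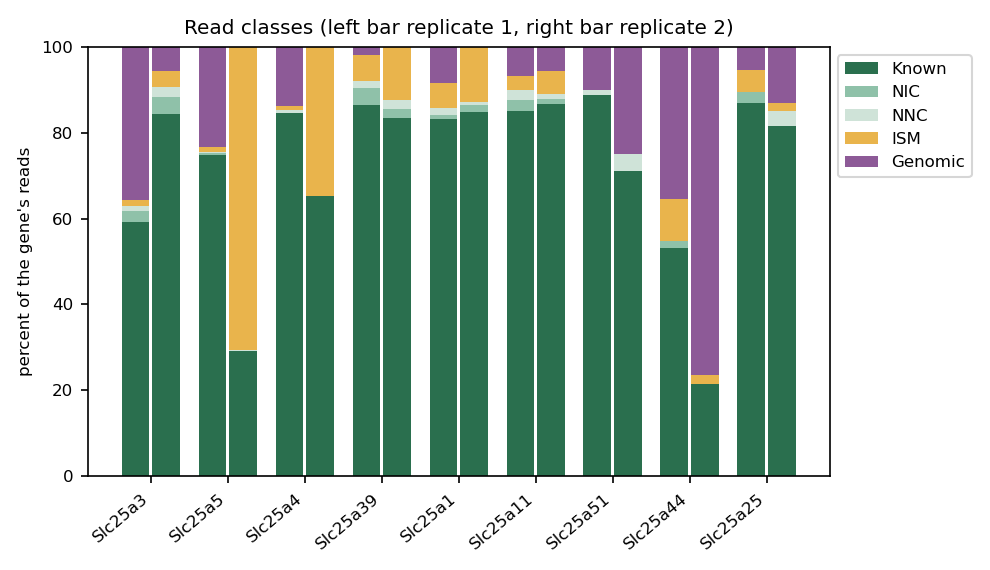
Percent of each gene's reads in the 5 read classes, for 9 carriers, with replicate 1 as the left bar and replicate 2 as the right bar of each pair. In Slc25a5, full-length classes hold 75.6% of reads in replicate 1 and 29.5% in replicate 2, the remainder being Genomic in the first and ISM in the second.

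Among the 33 members with at least 10 reads in total, 10 differed between the libraries (two-sided exact binomial test against TMM-scaled library sizes, Benjamini-Hochberg adjusted p under 0.05 over 9885 genes). Over all genes tested, 14.0% were called, 7.86% higher and 6.13% lower in replicate 2. That share depends on read depth: among genes with at least 50 reads in total, 26% of 4965 were called, and 9 of 20 members. Of the members, 7 were higher and 3 lower in replicate 2, and the median log2 ratio was 0.05, against -0.01 over all genes. With full-length reads alone, 8 of 30 were called, 7 of them shared with the first count, against 15.2% of all genes (8.22% higher and 7.01% lower). Slc25a5, Slc25a44 and Slc25a10 dropped out and Slc25a1 came in.

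**Figure D3:**
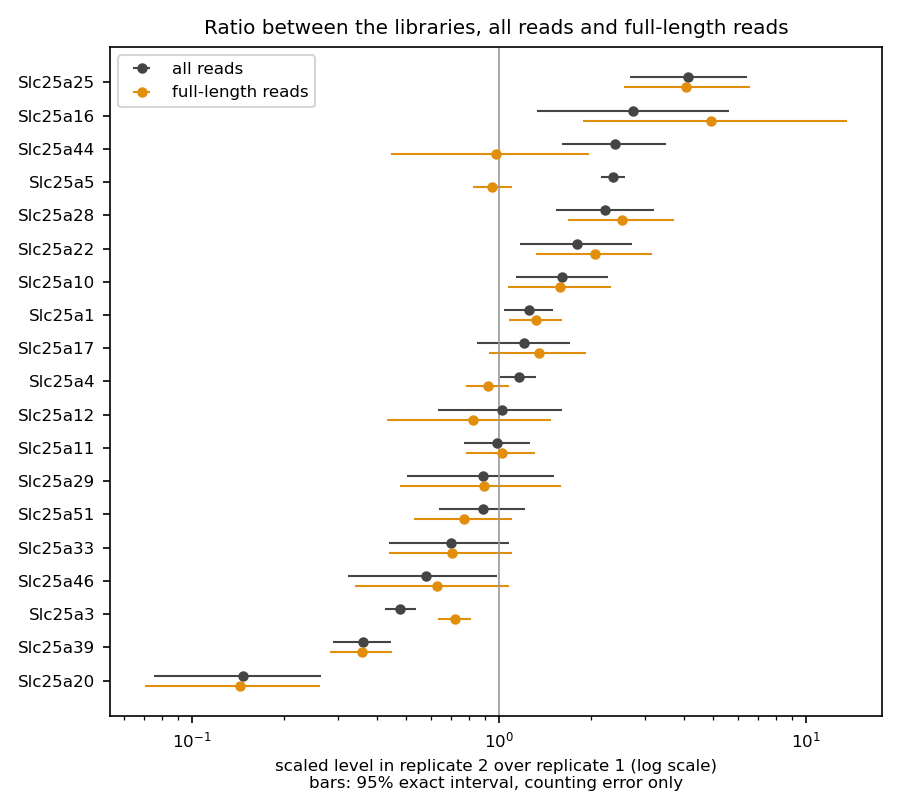
Ratio of the scaled level in replicate 2 to that in replicate 1 (log axis) for 19 of the 20 carriers with a mean of at least 50 CPM or a call, from all reads and from full-length reads. Bars are 95% exact intervals for counting error. Slc25a5 and Slc25a44 lie above 1 with all reads and close to 1 with full-length reads, while Slc25a25, Slc25a39 and Slc25a20 lie in the same place by both.

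Slc25a3, the carrier that brings phosphate (and copper) into the matrix, lies on chromosome 10 at 91116574 to 91124059 (mm10). It had 2148 reads in replicate 1 (1876.7 CPM) and 354 in replicate 2 (854 CPM), 2.09-fold lower in replicate 2 (95% exact interval 1.87 to 2.35, adjusted p = 6.4e-42, exact binomial test). A single 1-exon model inside the last exon, which is 551 bases long, had 767 reads in replicate 1 against 20 in replicate 2. Counted by full-length reads, the gene had 1351 and 321, or 1441.6 and 1022.8 full-length CPM, 1.4-fold lower in replicate 2 (1.23 to 1.58). The direction was thus the same by both counts, and the size was smaller with full-length reads.

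Slc25a3 has a pair of alternative exons of similar coding sequence, placed after the second exon. The upstream one is known as exon 3A of the heart and muscle form, and the downstream one as exon 3B of the form found in most tissues. They are printed here because the reads separate them. Sequences are from the GENCODE M21 transcripts, 5′ to 3′ on the minus strand of chromosome 10, with capitals at bases that are identical in an alignment of both exons (80 of 126 aligned positions, 63.5%).
upstream exon (91122207 to 91122331, 125 bases): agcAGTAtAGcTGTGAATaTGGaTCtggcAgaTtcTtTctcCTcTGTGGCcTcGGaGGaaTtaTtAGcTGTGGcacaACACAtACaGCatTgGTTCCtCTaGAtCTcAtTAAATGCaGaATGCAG
downstream exon (91121922 to 91122043, 122 bases): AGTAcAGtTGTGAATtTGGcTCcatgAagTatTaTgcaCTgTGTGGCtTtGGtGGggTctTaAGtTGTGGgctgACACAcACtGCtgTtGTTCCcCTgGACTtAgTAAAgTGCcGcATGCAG

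The downstream exon alone was in 1272 of 1327 full-length reads that span the site in replicate 1 (95.9%, with a Wilson interval of 94.6 to 96.8%) and in 299 of 312 in replicate 2 (95.8%, 93 to 97.5%). The upstream exon alone was in 14 reads in replicate 1 (1.06%, 0.629 to 1.76%) and in 0 of 312 in replicate 2, which allows a share of up to 0.962%. Both exons together were in 12 reads of replicate 1 and in none of replicate 2. Alone or with the downstream exon, the upstream exon was thus in 26 reads of replicate 1 (1.96%, 1.34 to 2.86%); the difference between the libraries was not tested. Among reads that were not full-length, 1 in replicate 2 held the upstream exon, or 1 of 313 spanning reads of any class. In addition, 1 full-length read of replicate 2 had a first exon that ended at the 3′ end of the upstream exon (91122207). It was not counted as holding that exon. Muscle markers stood at 969 and 14.5 CPM, and their part in this result was not tested. Another 25 and 12 reads ran on through the region between the exons.

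Among whole isoforms, Slc25a3-201, with the downstream exon and 1071 coding bases, held 1180 of 1351 full-length reads (87.3%) and 265 of 321 (82.6%). Slc25a3-203, annotated with 7 exons against 8 and with the same 1071 coding bases, came next with 58 and 26 reads (4.29% and 8.1%). Whether these reads hold the first intron of Slc25a3-201 was not tested. The leading isoform of a gene is here the one with most full-length reads over both libraries together. Its share in Slc25a3 was not called between the libraries (two-sided Fisher's exact test, Benjamini-Hochberg adjusted p = 0.64 over 3015 genes). A new combination of known splice sites had 20 and 10 reads, and 2 further new chains, each using 1 unannotated intron, had 12 and 1 and 9 and 3 reads.

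The ADP/ATP carriers exchange matrix ATP for cytosolic ADP. Slc25a5, the form of growing and many resting tissues (chromosome X, 36795651 to 36798807), had 1068 reads (933 CPM) in replicate 1 and 865 (2086.4 CPM) in replicate 2, 2.35-fold higher in replicate 2 (2.15 to 2.57, adjusted p = 1.1e-70, exact binomial test). Nearly all of the difference lay in 1-exon reads at the 3′ end. A Genomic model of 932 bases had 250 reads in replicate 1, and an ISM model of 416 bases inside the 421-base last exon had 608 in replicate 2. Full-length reads of Slc25a5 numbered 807 and 255, or 861 and 813 full-length CPM, a ratio of 0.953 (0.825 to 1.1). The call was lost with full-length reads and the sign turned.

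Slc25a4, the form that prevails in heart and skeletal muscle (chromosome 8, 46206797 to 46211284), had 772 reads (674 CPM) and 308 reads (743 CPM), a ratio of 1.16 that was not called (1.01 to 1.32, adjusted p = 0.15, exact binomial test). Its full-length reads numbered 658 and 201, or 702 and 640 full-length CPM. By full-length reads Slc25a5 stood above Slc25a4 in both libraries, and Slc25a3 above both. Each ADP/ATP carrier was read as a single isoform: Slc25a4-201 held 99.4% and 100% of the full-length reads, and Slc25a5-201 98.8% and 98%.

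**Figure D4:**
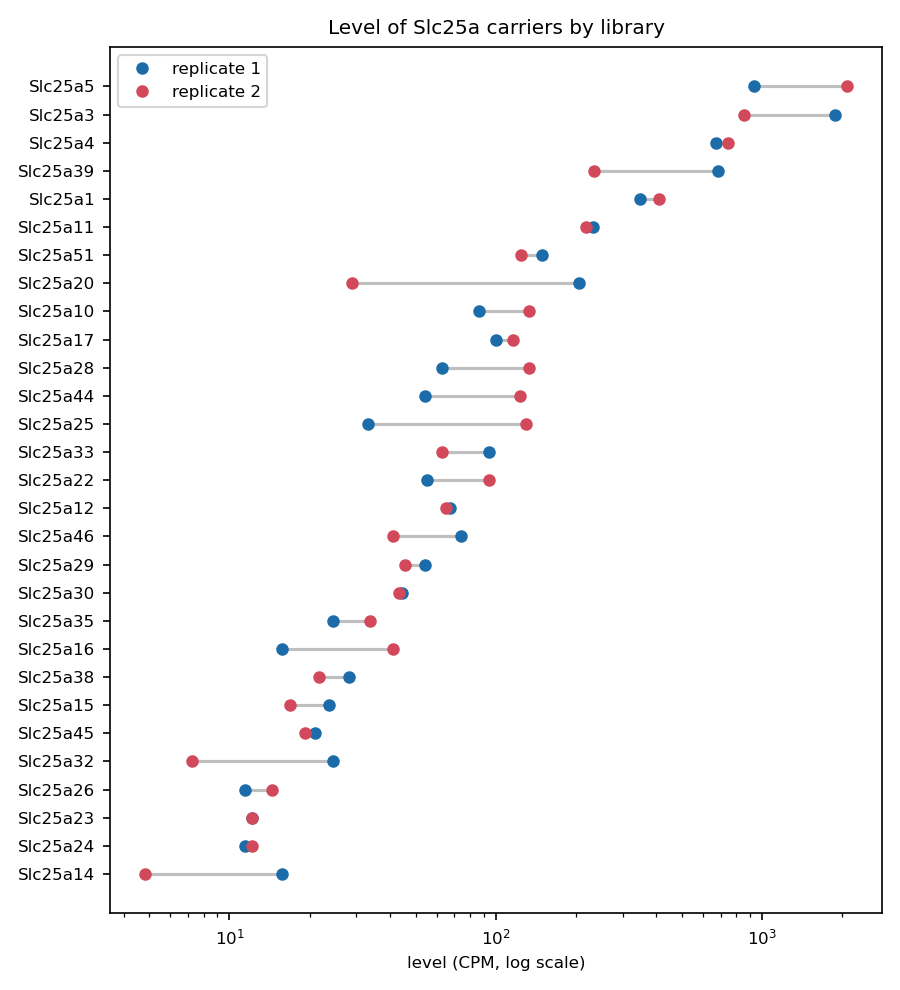
Level of 29 of the 30 carriers with a mean of at least 10 CPM in each library (log axis), ordered by the mean of both. Grey lines join the libraries. Slc25a20, Slc25a25 and Slc25a39 have the longest lines among the plotted carriers of at least 50 CPM.

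Slc25a25 is a calcium-regulated carrier that exchanges ATP-Mg for phosphate and so sets the adenine nucleotide content of the matrix. It lies on chromosome 2 at 32414487 to 32451445 (minus strand). It had 38 reads in replicate 1 (33.2 CPM) and 54 in replicate 2 (130 CPM), 4.12-fold higher in replicate 2 (2.67 to 6.42, adjusted p = 1.1e-09, exact binomial test). Full-length reads gave 34 and 46, a ratio of 4.08 (2.56 to 6.56). This was the largest ratio above 1 by all reads among the 33 members tested.

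The annotation gives Slc25a25 alternative first exons, spliced to 1 shared second exon and each with its own start codon, so that the proteins differ at the N terminus. The distal exon (32451067 to 32451445, in Slc25a25-201 and Slc25a25-205, 258 coding bases) lies 29467 bases before the second exon. The middle exon (32430529 to 32431119, Slc25a25-202 and Slc25a25-204, 219 coding bases) lies 8929 bases before it, and the proximal exon (32423794 to 32424005, Slc25a25-203, 159 coding bases) 2194 bases before it. The junctions that tell them apart are shown from the GENCODE M21 transcripts, 5′ to 3′ on the minus strand, with the last 30 bases of the first exon in lower case and the first 20 bases of the shared second exon in capitals.
distal: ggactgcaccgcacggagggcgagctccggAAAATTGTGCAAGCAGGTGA
middle: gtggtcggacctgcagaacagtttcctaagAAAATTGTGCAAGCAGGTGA
proximal: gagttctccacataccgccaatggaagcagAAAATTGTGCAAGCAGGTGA

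The libraries used different first exons. In replicate 1, 29 of 34 full-length reads began in the distal exon (85.3%, with a Wilson interval of 69.9 to 93.6%) and 5 in the proximal exon (14.7%, 6.45 to 30.1%). In replicate 2, 11 of 46 began in the distal exon (23.9%, 13.9 to 37.9%) and 35 in the proximal exon (76.1%, 62.1 to 86.1%). The middle exon had 0 reads in both. The intervals of the libraries do not overlap for either exon.

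The distal exon stood at 30.9 full-length CPM in replicate 1 and 35.1 in replicate 2, and the proximal exon at 5.34 and 112. The higher total in replicate 2 therefore lay in transcripts from the proximal start. Slc25a25 was the only member with a called leading isoform among 14 tested (Slc25a25-205, 28 of 34 reads and 11 of 46, adjusted p = 7.0e-05, two-sided Fisher's exact test). In replicate 2 alone, Slc25a25-203 held more reads than Slc25a25-205, 33 of 46 (71.7%). Of all 3015 genes tested, each with 20 or more full-length reads per library, 31 were called (1.03%).

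**Figure D5:**
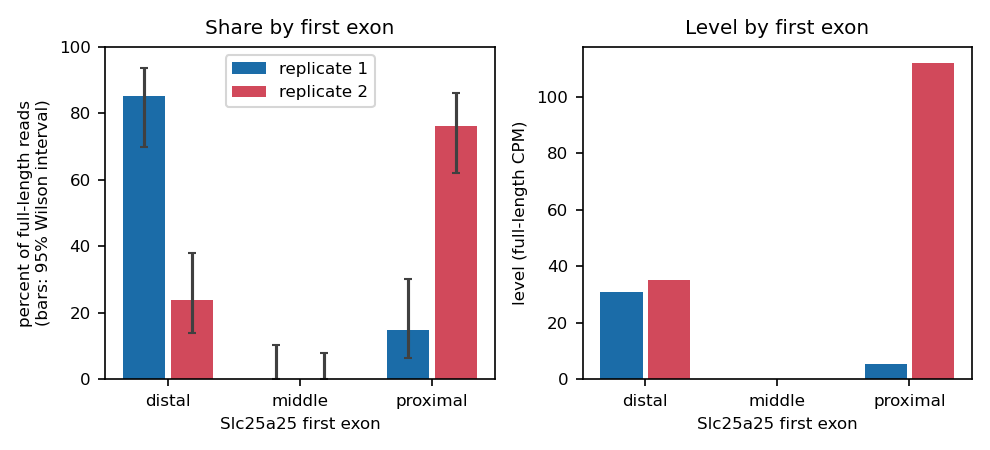
Slc25a25 full-length reads by first exon: on the left the percent of these reads with 95% Wilson intervals, on the right the full-length CPM. The distal exon is close in level in both libraries (30.9 and 35.1), and the proximal exon stands at 5.34 and 112.

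The sequence before the proximal start is shown because the difference between the libraries lay in its transcripts. It is the 250 bases before the RefSeq start site (GRCm38.p6, minus strand of chr2:32424067-32424316), which lies 61 bases upstream of the 5′ start of the annotated exon, printed 5′ to 3′. Capitals mark the cyclic AMP response element TGACGTCA, a palindrome that also holds the shorter motif TGACG on both strands.
proximal promoter: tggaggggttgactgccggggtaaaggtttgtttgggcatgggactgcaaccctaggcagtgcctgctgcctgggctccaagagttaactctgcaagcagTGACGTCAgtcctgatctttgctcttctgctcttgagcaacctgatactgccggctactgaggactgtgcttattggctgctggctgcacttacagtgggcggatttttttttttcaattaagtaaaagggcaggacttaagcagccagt

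The element began 150 bases before the RefSeq start site. Windows of the same length held TGACGTCA in 508 of 32851 cases (1.55%), and among 46 windows of 36 carriers in 2 cases, Slc25a25 and Slc25a36. The windows before the distal and the middle start held neither TGACGTCA nor TGACG on either strand, the latter being in 17.8% of all windows. TATAAA (12.4% of all windows) and AAGGTCA (4.08%), searched on both strands, were in none of the 3 Slc25a25 windows, while CCAAT (33.8%) was in each of them. The distal window had 60% G and C, the proximal one 51.6%, and the median window 52.4%. Such matches describe the letters and no binding was measured.

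The other calcium-regulated ATP-Mg carriers were low. Slc25a23 had 14 and 5 reads (12.2 and 12.1 CPM), of which 1 and 0 were full-length, and Slc25a24 had 13 and 5 (11.4 and 12.1 CPM). An annotated 36-base exon of Slc25a25 at 32420656 to 32420691 was in 0 of 34 and 0 of 46 full-length reads that span it.

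Slc25a20 carries acylcarnitines into the matrix for fatty acid oxidation, in exchange for carnitine. It had 236 reads (206 CPM) in replicate 1 and 12 (28.9 CPM) in replicate 2, 6.78-fold lower in replicate 2 (3.81 to 13.3, adjusted p = 5.2e-16, exact binomial test), the widest gap of any member tested. Full-length reads numbered 232 and 11, a 6.99-fold difference (3.84 to 14.2). Muscle markers differed in the same direction (969 and 14.5 CPM). The brown fat list summed to 2692.7 and 4336.8 CPM, with Cidea, Cox7a1 and Cox8b called higher in replicate 2 and Ucp1 (787 and 671 CPM) and Elovl3 (80.4 and 60.3 CPM) not called. Their part in the Slc25a20 result was not tested.

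Slc25a39 imports glutathione into mitochondria. It had 781 reads (682 CPM) in replicate 1 and 97 (234 CPM) in replicate 2, 2.78-fold lower in replicate 2 (2.25 to 3.46, adjusted p = 1.3e-24, exact binomial test), and by full-length reads 719 and 85, 2.8-fold lower (2.24 to 3.55). Slc25a39 is also known from red cell precursors, whose marker list stood at 4033.8 and 3844.8 CPM. Slc25a39-201 held 93.9% and 95.3% of its full-length reads. Its close relative Slc25a40 had 9 and 5 reads (7.86 and 12.1 CPM) and was not called.

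The carboxylate carriers link the citric acid cycle to cytosolic NADPH and lipid synthesis. Slc25a1, the citrate carrier, had 397 reads (347 CPM) and 171 (412 CPM), a ratio of 1.25 that was not called (1.04 to 1.5, adjusted p = 0.092, exact binomial test). With full-length reads (341 and 149) the ratio was 1.32 (1.08 to 1.6) and was called. Slc25a11, which exchanges 2-oxoglutarate for malate, had 267 and 91 reads, a mean of 226 ± 9.74 CPM (SD, n = 2). Slc25a10, the dicarboxylate carrier, had 99 reads (86.5 CPM) and 55 (133 CPM), 1.61-fold higher in replicate 2 (1.14 to 2.26, adjusted p = 0.042, exact binomial test). This last call was lost with full-length reads, although the ratio of 1.58 was close to the same. Together the group stood at 716 ± 69.3 CPM (SD, n = 2).

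Among amino acid carriers, Slc25a12, the aspartate/glutamate carrier of the malate-aspartate shuttle, had 77 reads (67.3 CPM) and 27 (65.1 CPM), while its liver-type relative Slc25a13 had 9 and 5 reads. Slc25a22, a glutamate carrier, had 63 reads (55 CPM) and 39 (94.1 CPM), 1.8-fold higher in replicate 2 (1.17 to 2.72, adjusted p = 0.045, exact binomial test). Slc25a29, a carrier of basic amino acids, had 62 reads (54.2 CPM) and 19 (45.8 CPM). Slc25a38, the glycine carrier of haem synthesis, had 32 reads (28 CPM) and 9 (21.7 CPM). Neither of the latter was called.

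The leading isoform of Slc25a22 held 48.2% and 28.9% of its full-length reads. In replicate 1 that was the lowest share of a leading isoform among the 14 carriers tested for isoforms. In replicate 2 the share of Slc25a25-205 was lower (23.9%), but Slc25a25-203 held more reads there. The leading model of Slc25a22, Slc25a22-221, is an annotated unspliced transcript of 5590 bases with retained introns (27 and 11 reads), so that 29 and 27 full-length reads were spliced. These began at several annotated first exons. The exon ending at 141437569 had 15 and 7 reads, that ending at 141435288 had 9 and 14, and that ending at 141434531 had 4 and 4 (chromosome 7). A new combination of known splice sites beginning at the 141435288 exon had 7 and 12 reads, above the 11 of Slc25a22-221 in replicate 2. The leading share of Slc25a22 was not called (adjusted p = 0.89, Fisher's exact test).

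Slc25a44, the carrier of branched-chain amino acids, had 62 reads (54.2 CPM) and 51 (123 CPM), 2.39-fold higher in replicate 2 (1.61 to 3.51, adjusted p = 1.5e-04, exact binomial test). A Genomic model whose deposited coordinates span 2 bases at the gene's 3′ end held 22 of these reads in replicate 1 and 39 in replicate 2. Full-length reads numbered 34 and 11, or 36.3 and 35.1 full-length CPM, so the call was lost and the ratio was 0.976 (0.446 to 1.97). Its full-length reads used 3 annotated first-exon ends, with 22 and 6, 8 and 1, and 4 and 4 reads.

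The iron carriers are the mitoferrins. Slc25a28, the form of most tissues, had 72 reads (62.9 CPM) and 55 (133 CPM), 2.22-fold higher in replicate 2 (1.53 to 3.19, adjusted p = 3.0e-04, exact binomial test), and by full-length reads 2.51-fold (1.68 to 3.72). Slc25a37, the erythroid form, had 4 and 4 reads.

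Cofactor and nucleotide carriers summed to 543 ± 24.8 CPM (SD, n = 2), with all 9 members read. Of the 8 tested, 1 was called, against 14.0% of all genes tested. Slc25a51, which imports NAD, had 170 reads (149 CPM) and 52 (125 CPM). Slc25a17, the peroxisomal carrier of cofactors, had 115 reads (100 CPM) and 48 (116 CPM). Both genes stood at like levels, and neither was called.

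Slc25a33, a pyrimidine nucleotide carrier, had 108 reads (94.4 CPM) and 26 (62.7 CPM), and was not called (adjusted p = 0.34, exact binomial test). Slc25a16, which is known from coenzyme A supply, had 18 reads (15.7 CPM) and 17 (41 CPM), 2.74-fold higher in replicate 2 (1.33 to 5.63, adjusted p = 0.028, exact binomial test). By full-length reads, 8 and 13, its ratio was 4.9 (1.88 to 13.6). The remaining members of the group (Slc25a26, Slc25a32, Slc25a36 and Slc25a42) had between 7 and 28 reads in replicate 1 and between 2 and 6 in replicate 2.

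Slc25a46, which acts in mitochondrial shape at the outer membrane, had 85 reads (74.3 CPM) and 17 (41 CPM), and was not called (adjusted p = 0.17, exact binomial test). Carriers named for their likeness to uncoupling proteins were lower, with Slc25a30 at 51 and 18 reads (44.6 and 43.4 CPM) and Slc25a14 at 18 and 2. Among the carriers grouped here by number alone, Slc25a35 had 28 and 14 reads and Slc25a45 24 and 8, while Slc25a43, Slc25a47, Slc25a48 and Slc25a53 had at most 3 reads in a library.

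Most carriers were read as 1 main isoform. In 11 of the 14 members tested for isoforms, the leading isoform held over 80% of these reads in both, and the median leading share was 91.4% and 90.1%, against 92.7% and 92.3% over all genes tested. Of these 14, only Slc25a22 and Slc25a25 had a second isoform of at least 10% in both libraries.

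New intron chains (NIC and NNC) numbered 157 in replicate 1 and 69 in replicate 2, of which 29 were in both libraries. With at least 2 reads in 1 library and 1 in the other, 21 chains of 15 genes remained. Beside those of Slc25a3 and Slc25a22, they included chains of Slc25a14 (11 and 1 reads), Slc25a38 (7 and 3), Slc25a39 (9 and 1), Slc25a32 (7 and 2) and Slc25a13 (3 and 4). In Slc25a13, a chain of 17 introns with 1 unannotated intron outnumbered the annotated Slc25a13-201, which had 2 and 0 reads. Slc25a15, the ornithine carrier, with 27 and 7 reads in all, had 5 and 1 reads of a chain whose first intron (chromosome 8, 22395828 to 22397957) is not annotated.

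Other genes of mitochondrial transport were read in the same libraries. Carriers of the family under other names stood at 1985.9 and 1526.8 CPM with 5 of 5 read and 2 lower in replicate 2, where 6.13% of all genes tested were lower. They were the uncoupling protein Ucp3 (43 and 4 reads) and the carrier-like outer membrane protein Mtch1 (899 and 213 reads), while Ucp1 of brown fat had 901 and 278 reads and was not called. Channels and transporters outside the family had 2 higher (Mpc1 and Smdt1) and 2 lower (Mcu and Ghitm) of 18 tested, with a median ratio of 1.07, against 7.86% higher and 6.13% lower over all genes. Mcu, the pore of the calcium uniporter, had 18 reads in replicate 1 and 0 in replicate 2.

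Outer membrane pores and ligands had 1 lower of 4 tested, Vdac1 at 515 and 40 reads. The proteins that import and insert carriers had 2 higher (Timm29 and Timm8b) and 1 lower (Tomm70a, a receptor for carrier precursors, 145 and 28 reads) of 13 tested, with a median ratio of 0.999. Over all genes tested, 14.0% were called in either direction.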

How the data were processed

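Per the file headers, the authors deposited read counts per transcript model for each library, on mm10 with GENCODE M21 and TALON model identifiers; aligner and tool versions: not given in the sources used here. Each library was modelled separately. Counts were summed per gene over annotated genes, with spike-ins and new loci left out. Carriers are all genes named Slc25a and a number. The carriers and gene lists were chosen with earlier results of these data known. Named with values were carriers of at least 50 CPM on average, every called carrier, and Slc25a3, Slc25a4, Slc25a5 and Slc25a25; isoforms were described where a second one held at least 10% in both libraries, and always for Slc25a3 and Slc25a25.

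Libraries were compared by an exact binomial test on genes with at least 10 reads, with TMM factors from edgeR 4.0.16 (1.02505 and 0.975562), and leading isoforms by Fisher's exact test at 20 or more full-length reads per library (SciPy 1.17.1), both with Benjamini-Hochberg adjustment and a threshold of 0.05. No model with replicates could be fitted, so intervals and p-values cover counting error between these libraries. Alternatives used DESeq2 1.42.0 size factors, other filters and other read classes. Gene models and exon sequences came from GENCODE M21, and promoters from RefSeq (GRCm38.p6; 36 of 47 carriers matched). For 1 carrier and 1 marker gene, values are not reported here, although both stay in the sums and counts.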

Additional observations from a re-analysis of the deposited data

How the results depend on the processing

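The summed level of 6144.4 CPM was 5681.0 with all reads of the library as denominator, 5470.5 with full-length models only, 5834.7 without Genomic models and 5339.5 with models of more than 1 exon. Each is a mean of both libraries. With full-length models the libraries stood at 5903.2 and 5037.7, without Genomic models at 5382.8 and 6286.5, and with models of more than 1 exon at 5776.4 and 4902.6. Leaving out each library gave 6075.9 to 6212.8 CPM for the sum, 62.8 to 77.8% for the full-length share, 39 to 41 members with a read, 23.9 to 85.3% for the distal Slc25a25 exon and 95.8 to 95.9% for the downstream Slc25a3 exon. That Slc25a3 share was 95.6% with incomplete models and 99.4% with Known models only. The count of 10 called members ranged from 7 to 11 over 8 alternatives, with 3 lower calls in each. Slc25a5 turned to log2 ratios of -0.07 with full-length models and -0.06 with models of more than 1 exon. Slc25a44 turned to -0.04, -0.13 and -0.02 with full-length models, without Genomic models and with models of more than 1 exon; the 2-base model is absent from each of these. Over 33 members, 224 of 242 single ratios under an alternative kept their side of the threshold. Slc25a10 lost its call under 5 alternatives, Slc25a22 under 3 and Slc25a16 under 1. Slc25a1 gained one under 3 (log2 ratios of 0.40 with full-length models, 0.51 without Genomic models and 0.40 with models of more than 1 exon), and Slc25a4 gained one without Genomic models (0.49, adjusted p = 3.0e-05, exact binomial test). Slc25a25 stayed the member with a called isoform in both alternatives tried. No paired analysis was possible because there is 1 group. Depth limits carriers under 10 CPM: a few reads decide their values, and in replicate 2 they lie near the level that 3 reads allow.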
